A study of Homo sapiens with 6 samples.

Results

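The MS4A genes (membrane-spanning 4-domains, subfamily A) form a cluster on human chromosome 11, and 10 of them were described here by their RNA levels in K562 cells with and without knockdown of nucleophosmin (NPM, gene NPM1). The 10 members, MS4A1, MS4A2, MS4A3, MS4A4A, MS4A6A, MS4A6E, MS4A7, MS4A12, MS4A14 and MS4A15, were taken by name from 20802 genes listed for each library. They were chosen with their measured values in view, because MS4A3, MS4A4A and MS4A6A were far lower after NPM knockdown, so the difference between the groups is given for them as a description and not as a test. Of the 10, 6 had reads in at least 1 library and 4 had none in any.

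The samples were 6 AmpliSeq libraries from K562, a human cell line derived from chronic myeloid leukemia in blast crisis. In 3 of them (shSc) the cells carried a lentiviral non-target scrambled shRNA, and in the other 3 (NPM-KD) the shRNA shNPM300 against NPM1. Both kinds of cells had gone through lentiviral infection and puromycin selection as clones, so what else differs between the clones and the knockdown itself cannot be told apart. No source states that the triplicates are separate cultures, and the errors and p-values therefore cover a spread between libraries that may be technical only.

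AmpliSeq amplifies 1 short stretch of each gene's cDNA and counts its reads. The deposited unit is RPM, reads of a gene scaled to a fixed total per library, and levels are compared here between libraries for 1 gene, not between genes, since the values are not per length and amplicons differ in how well they amplify. Depth was 8842344 to 18981902 reads per library, so that 0 reads of a gene allowed up to 0.158 to 0.339 RPM (3 reads, counting error only). The study kept 3 NPM-KD and 2 shSc libraries without naming the latter in its text, and replicates 1 and 2 of shSc are taken as the retained pair because the shSc means in its supplementary gene list equal theirs. Replicate 3 of shSc stood apart: it had 16619 genes above 0 against 13893 to 14600 in the others, and Pearson's r across genes of 0.839 to 0.879 with them against 0.922 to 0.972 among the rest. Its summed markers were highest for macrophages (84.9 RPM against 0.141 to 1.00), B cells (49.8 against 1.79 to 8.85) and T and NK cells (156 against 18.5 to 89.1). Of the macrophage sum, CD14 made 53.0 and CSF1R 31.4 RPM. Mast cell markers were lowest there (2.71 RPM against 6.06 to 13.2), and fibroblast and epithelial sums lay within the range of the others. Means below are over the 5 retained libraries, and replicate 3 is given beside them. All 8 erythroleukemic K562 markers were at 1 RPM or more in each retained library, with a summed level of 6530 to 16450 RPM, and of 7246 RPM in shSc replicate 3. NPM1 itself was at 3856, 2968 and 3146 RPM in shSc replicates 1, 2 and 3 and at 1302, 1168 and 655 RPM in NPM-KD replicates 1, 2 and 3, so the groups did not overlap.

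MS4A proteins cross the membrane 4 times and most are found on blood cells. The best known is MS4A1, the B cell antigen CD20. MS4A2 is the beta chain of the high-affinity IgE receptor of mast cells and basophils, which amplifies the signal of the receptor. MS4A3, also called HTm4, is found in progenitors of granulocytes and monocytes and binds the phosphatase KAP (gene CDKN3), which acts on the cell cycle kinase CDK2. MS4A4A, MS4A6A and MS4A7 are known from monocytes and macrophages, and MS4A12 from the epithelium of the colon. Human MS4A genes lie side by side, and each group of related members is thought to have arisen by local duplication.

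In K562 with the scrambled shRNA, 4 neighbouring members were read in every library, namely MS4A3, MS4A2, MS4A6A and MS4A4A in map order, and for each of them all NPM-KD libraries lay below all shSc libraries. They span 261 kb at one end of a cluster of 745 kb. Among all 11554 genes tested (a level of 1 RPM or more in 2 or more of the retained libraries), 10.4% had every NPM-KD library below both retained shSc libraries, and 4.35% had every NPM-KD library below all 3 shSc libraries. Since the members were chosen for this difference, nothing is read from their count against these shares. In RNA from whole cultures, fewer cells with a transcript and less transcript per cell cannot be told apart.

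**Figure D1:**
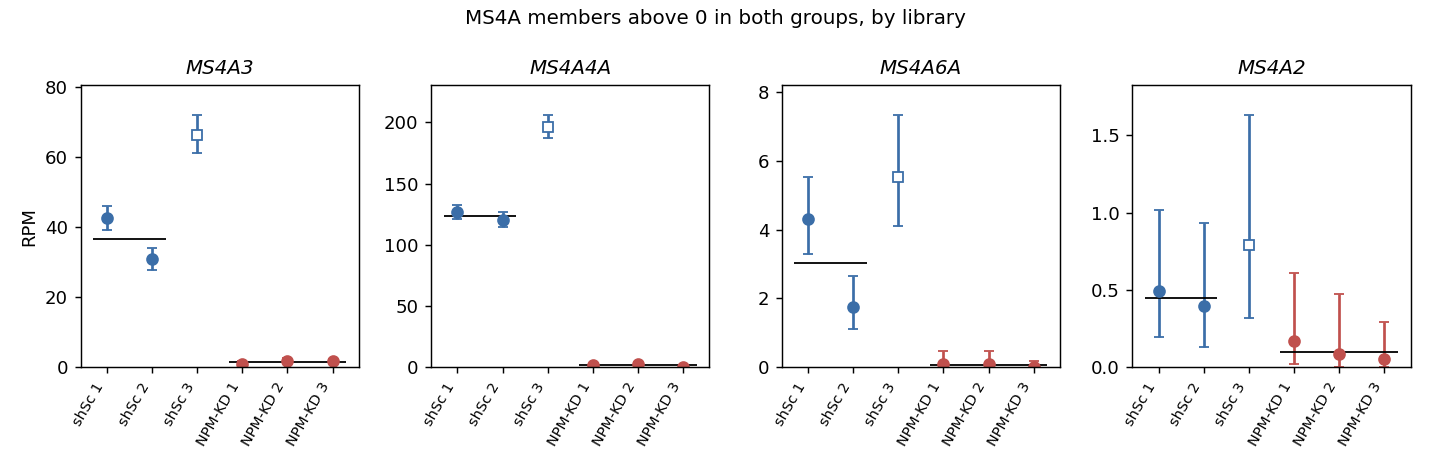
RPM of the 4 members above 0 in both groups, with 1 point per library, exact Poisson 95% intervals of the reads as bars and the mean of the retained libraries as a line (open square: shSc replicate 3, not in the mean). MS4A4A lay between 120.5 and 196 RPM in shSc and between 0.632 and 2.90 RPM in NPM-KD, and in each panel the NPM-KD points lie under all shSc points.

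MS4A4A had the most reads of the members. Its RPM was 126.5, 120.5 and 196 in shSc replicates 1, 2 and 3 (1795, 1511 and 1736 reads). In NPM-KD it was 1.68, 2.90 and 0.632 for replicates 1, 2 and 3 (20, 34 and 12 reads). The lowest shSc library therefore stood far above the highest NPM-KD library, and the retained shSc pair differed little from each other. Averaged, shSc had 123.5 ± 4.26 RPM (SD, n = 2), against 1.74 ± 1.14 RPM (SD, n = 3) after knockdown, a ratio of 71.1. Replicate 3 of shSc, left out of this mean, was the highest library. On the log2(RPM + 0.5) scale, where a limma model was fitted to all tested genes, the difference NPM-KD minus shSc was -5.93 (standard error 0.48), the most negative of the 11554 genes.

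MS4A3 was at 42.4, 30.8 and 66.3 RPM in shSc replicates 1, 2 and 3 (602, 386 and 586 reads). After knockdown its level was 0.926, 1.79 and 1.79 RPM for NPM-KD replicates 1, 2 and 3 (11, 21 and 34 reads). Every NPM-KD library still held reads of MS4A3 above the 3-read limit, which covers counting error only. Averaged, shSc had 36.6 ± 8.24 RPM (SD, n = 2), against 1.503 ± 0.499 RPM (SD, n = 3) after knockdown, a ratio of 24.4. The log2 difference was -4.23 (standard error 0.38), next to MS4A4A in the order of all tested genes. As for MS4A4A, shSc replicate 3 was the highest library, and with it the ratio of means was 30.9.

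MS4A6A was read at a low level. It was at 4.30, 1.75 and 5.54 RPM in shSc replicates 1, 2 and 3 (61, 22 and 49 reads). NPM-KD replicates 1 and 2 held 1 read each and replicate 3 none, at 0.084, 0.085 and 0 RPM, all under the limit that 3 reads set. The shSc libraries spread widely for this gene, at 3.03 ± 1.80 RPM (SD, n = 2), yet each lay above all NPM-KD libraries. Over pooled reads, 83 in shSc against 2 in NPM-KD, the ratio of rates was 66.1, with a 95% interval from counting error alone of 17.7 to 555. The log2 difference of -2.57 (standard error 0.47, 25th lowest of 11554) depended on the pseudocount, since the NPM-KD values were so low: it was -4.25 with 0.1 and -1.86 with 1 in place of 0.5.

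MS4A2 was close to the limit of detection in all libraries. Its RPM was 0.493, 0.399 and 0.792 in shSc replicates 1, 2 and 3 (7, 5 and 7 reads). After knockdown it was 0.168, 0.085 and 0.053 for NPM-KD replicates 1, 2 and 3 (2, 1 and 1 reads). All shSc libraries were above their own 3-read limit for this gene and no NPM-KD library was. Pooled reads of the retained libraries were 12 in shSc and 4 in NPM-KD, a ratio of rates of 4.78 with a 95% interval from counting error alone of 1.45 to 20.3. MS4A2 did not reach the level at which genes were tested, and no log2 difference is given for it.

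The other members had few reads or none. MS4A6E, a close relative of MS4A6A, had 6 reads in shSc replicate 1 (0.423 RPM) and none elsewhere. MS4A12 had 1 read in shSc replicate 1 (0.070 RPM) and 27 reads (3.05 RPM) in shSc replicate 3, and none in the other 4 libraries, so its reads came almost wholly from the library that stood apart. MS4A1, MS4A7, MS4A14 and MS4A15 had 0 reads in all 6 libraries, which allows up to 0.158 RPM in the deepest library and up to 0.339 RPM in the shallowest. For these 6 members no direction can be given, for MS4A12 because of that library and for the others because of depth.

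With the fixed threshold of an adjusted p of 0.05 in limma (Benjamini-Hochberg over all tested genes), 3 of the 10 members were tested, MS4A3, MS4A4A and MS4A6A. MS4A3 and MS4A4A were among the 7 genes (0.0606% of those tested) called lower, and MS4A6A was not. A further 8 genes (0.0692%) were called higher, and at an unadjusted p under 0.05 there were 385 lower and 440 higher genes. All 3 tested members had a log2 difference of -2 or lower, as did 49 of all tested genes (0.424%). The members' part in these counts only restates how they were chosen. MS4A6A reached the tested level only through shSc (4.30 and 1.75 RPM in replicates 1 and 2), with 0.085 RPM or less in NPM-KD. The calls hung on single libraries: leaving out either retained shSc library left no gene called, and leaving out NPM-KD replicate 2 or 3 left MS4A4A as the 1 member called. No tested member turned its sign in any of these.

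The map of the cluster on GRCh37 places MS4A3 at chr11:59824060-59838588 (plus strand), MS4A2 at chr11:59855734-59865940 (plus strand), MS4A6A at chr11:59939488-59952139 (minus strand) and MS4A4A at chr11:59953130-60085553 (plus strand). After them follow MS4A6E (60094728 to 60164069), MS4A7 (60145958 to 60163424), MS4A14 (60146003 to 60185229), MS4A1 (60223319 to 60238225), MS4A12 (60260251 to 60274903) and MS4A15 (60524340 to 60544206). GENCODE lists 16 protein-coding MS4A genes in the cluster, of which 14 had a row. The gene models of MS4A6E, MS4A7 and MS4A14 overlap, that of MS4A4A reaches over MS4A4E, which had no row, and use of strand in counting is not stated. With 1 amplicon per gene, reads of such overlapping or near-identical genes may not be separated.

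The family rows that are not members were as low as most members. MS4A5 and MS4A10 had 0 reads in all 6 libraries. MS4A8B (0.113 RPM, 1 read) and MS4A13 (0.226 RPM, 2 reads) were above 0 in shSc replicate 3 only. Of 14 MS4A rows, 6 were at 0 throughout. TMEM176A and TMEM176B, related genes that lie outside the cluster, stayed under 0.5 RPM: TMEM176B was at 0.352, 0 and 0.113 RPM in shSc and at 0.252, 0.171 and 0.421 RPM in NPM-KD, overlapping groups.

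**Figure D2:**
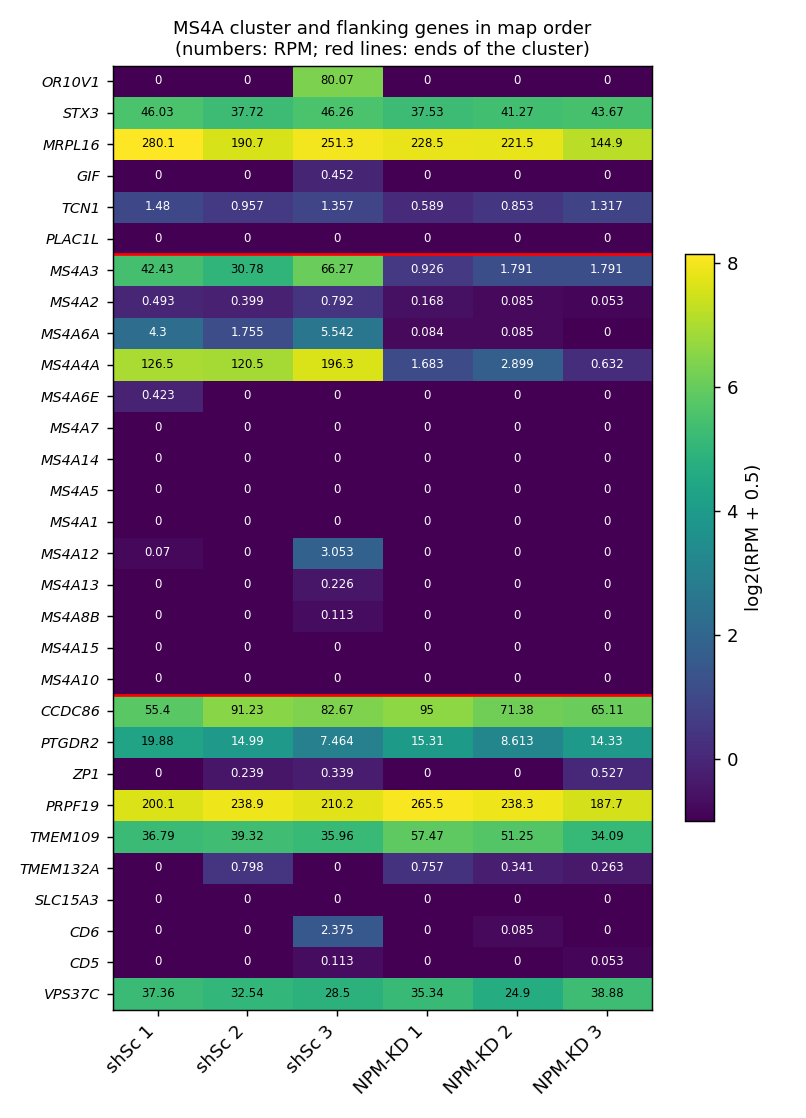
RPM of the MS4A rows and of 16 flanking genes in map order (rows) in each of 6 libraries (columns), with the number in each cell and its colour on the log2(RPM + 0.5) scale; red lines mark the ends of the cluster. MS4A3, MS4A6A and MS4A4A are lighter in shSc than in NPM-KD, while STX3, MRPL16, CCDC86 and PRPF19 outside the cluster keep nearly the same colour across the 6 libraries.

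The starts of the 4 members that were read in both groups are shown because the groups did not overlap for any of them, although MS4A6A was not called and MS4A2 was not tested, and because the start of MS4A3 was itself assayed by chromatin immunoprecipitation in the study. Each is a RefSeq promoter window on GRCh37, 300 bases read 5′ to 3′ on the gene's strand, around an annotated transcript start, most of it before the start. Capitals mark GGAA, the core letters of ETS factors such as PU.1, and GATA, each searched on both strands (TTCC and TATC on the other strand). The windows are chr11:59823888-59824187 (plus) for MS4A3, chr11:59855887-59856186 (plus) for MS4A2, chr11:59950507-59950806 (minus) for MS4A6A and chr11:60047889-60048188 (plus) for MS4A4A. MS4A6A had further windows that are not printed, at chr11:59950755-59951054, chr11:59951871-59952170 and chr11:59952090-59952389 (minus).
MS4A3: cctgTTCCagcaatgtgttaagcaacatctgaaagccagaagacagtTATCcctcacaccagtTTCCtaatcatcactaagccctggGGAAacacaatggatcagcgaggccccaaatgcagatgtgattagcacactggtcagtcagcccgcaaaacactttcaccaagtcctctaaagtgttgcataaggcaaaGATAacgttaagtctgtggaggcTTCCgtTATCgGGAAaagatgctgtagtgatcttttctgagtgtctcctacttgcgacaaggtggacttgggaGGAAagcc
MS4A2: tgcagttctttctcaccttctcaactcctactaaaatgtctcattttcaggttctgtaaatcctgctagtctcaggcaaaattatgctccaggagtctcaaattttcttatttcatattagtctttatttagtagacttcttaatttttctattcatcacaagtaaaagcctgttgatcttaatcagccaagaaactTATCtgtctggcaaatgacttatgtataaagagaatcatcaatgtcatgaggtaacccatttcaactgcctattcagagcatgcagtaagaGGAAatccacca
MS4A6A: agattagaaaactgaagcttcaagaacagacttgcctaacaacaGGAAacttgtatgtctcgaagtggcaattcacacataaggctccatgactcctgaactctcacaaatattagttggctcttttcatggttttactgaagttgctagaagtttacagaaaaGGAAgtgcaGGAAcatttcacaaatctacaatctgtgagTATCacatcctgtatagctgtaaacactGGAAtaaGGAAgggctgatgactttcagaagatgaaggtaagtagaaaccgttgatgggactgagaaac
MS4A4A: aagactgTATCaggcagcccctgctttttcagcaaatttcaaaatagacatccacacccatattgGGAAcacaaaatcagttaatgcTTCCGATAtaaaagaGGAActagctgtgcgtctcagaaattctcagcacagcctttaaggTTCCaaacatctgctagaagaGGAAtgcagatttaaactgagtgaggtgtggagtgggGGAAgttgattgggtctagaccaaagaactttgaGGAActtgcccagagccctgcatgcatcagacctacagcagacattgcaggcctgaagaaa

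MS4A4A held 7 GGAA and 2 GATA matches, MS4A3 held 6 and 3, and MS4A6A held 5 and 1 in the window shown. The further MS4A6A windows, in the order given above, held 3 and 0, 6 and 0, and 6 and 1. The window of MS4A2 had 1 match of each. Match counts did not follow the reads: MS4A12, with few reads, held 6 GGAA and 3 GATA in its window. MS4A14 and MS4A7, with 0 reads in all libraries, held 5 and 1, and 4 and 2. These letters are common: of 35116 promoter windows of the same length, 95.5% held GGAA at least once, with a median of 3 matches, and 49.7% held GATA. The C/EBP palindrome TTGCGCAA was in none of the 4 windows shown and in 0.2% of all windows. The looser TTNNGNAA was in all 4 shown and in 36.8% of all, but not in the MS4A6A window at chr11:59951871-59952170. CACCC, bound by KLF factors, was in the window of MS4A4A and in 59.9% of all. It was also in the MS4A6A windows at chr11:59951871-59952170 and chr11:59952090-59952389, but not in the one shown. TGTGGT, bound by RUNX factors, was in none of the 4 windows shown and in 13.1% of all. A match describes letters only and shows no binding.

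The MS4A3 window also holds the primers with which the study measured chromatin at this start. The forward primer lies at chr11:59824095-59824114 and the reverse primer at chr11:59824155-59824174.
forward primer: gtctgtggaggcttccgtta
reverse primer: agtccaccttgtcgcaagta

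Genes flanking the cluster, chosen by position alone and so open to a test, had log2 differences near 0. Of the 10 nearest protein-coding genes on either side, 16 of 20 had a row and 8 were tested. None passed at an adjusted p of 0.05 in limma (lowest 0.858), and none had an unadjusted p under 0.05. Their median log2 difference was -0.07, beside 0.01 over all tested genes. None passed under any of 17 alternative settings, edgeR and DESeq2 among them.

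On the MS4A3 side, MRPL16, a protein of the mitochondrial ribosome, lies 246 kb from the cluster. It was at 280, 191 and 251 RPM in shSc and at 228, 222 and 145 RPM in NPM-KD, with a log2 difference of -0.25 (95% interval -0.94 to 0.44). STX3, a syntaxin of vesicle fusion 251 kb away, was at 46.0, 37.7 and 46.3 RPM in shSc and at 37.5, 41.3 and 43.7 RPM in NPM-KD, with a difference of -0.03 (-0.61 to 0.55). Both genes overlapped between the groups, and the intervals leave out changes of the size seen in MS4A3.

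On the other side, CCDC86 lies 41 kb from the end of the cluster at MS4A10, which had 0 reads. It is much farther from the tested members: MS4A4A ends at 60085553 and CCDC86 starts at 60609586. CCDC86 was at 55.4, 91.2 and 82.7 RPM in shSc and at 95, 71.4 and 65.1 RPM in NPM-KD. Its log2 difference was 0.10 (95% interval -0.61 to 0.81). PRPF19, a splicing factor, was at 200.1, 239 and 210.2 RPM in shSc and at 266, 238 and 188 RPM in NPM-KD, with a difference of 0.06 (-0.51 to 0.63). The groups overlapped here too. The remaining tested flanks, TCN1, PTGDR2, TMEM109 and VPS37C, had log2 differences of -0.29, -0.46, 0.29 and -0.10, each with an interval that included 0. TCN1, the nearest tested gene on the MS4A3 side at 190 kb, was at 0.589 to 1.48 RPM in all libraries, so it bears little weight.

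A wider window was looked at after the values were known. Of 137 tested genes within 5 Mb of the cluster, members left out, none was called in either direction by limma. At an unadjusted limma p under 0.05 there were 7 (5 of them lower), beside 825 of all 11554 tested genes. Their median log2 difference over the 137 was -0.03. The most negative was PRG2 (-3.29, adjusted p = 0.145), which encodes the major basic protein of eosinophil granules, and the most positive FAM111A (2.34, adjusted p = 0.149). PRG2 was the 1 gene among the 137 at -2 or lower. On the recovered reads edgeR called none of the 137, beside 11 of all 11554 tested genes. DESeq2 called 2, PRG2 and FAM111A, beside 190 of all 11554.

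**Figure D3:**
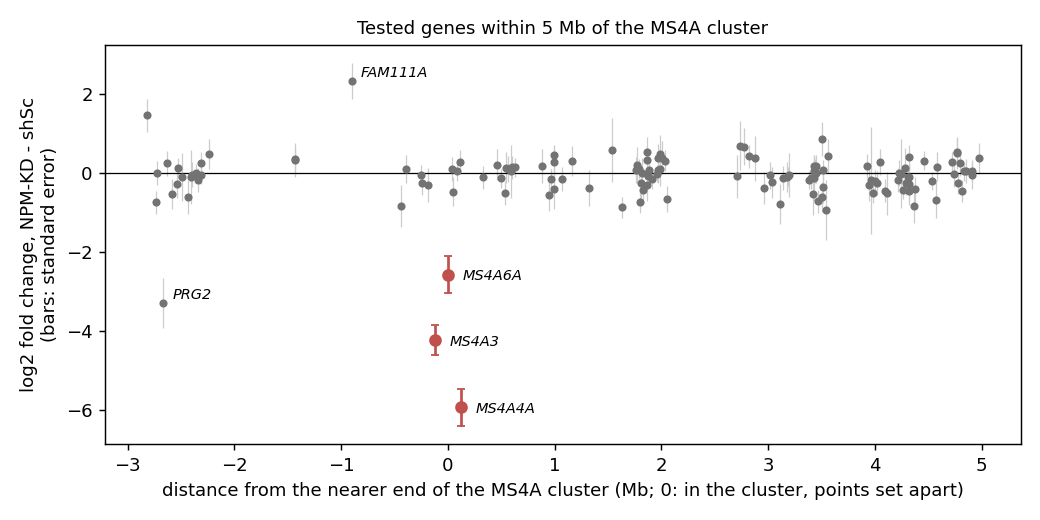
Log2 difference, NPM-KD minus shSc, with its standard error (vertical axis) of the tested genes against their distance in Mb from the nearer end of the cluster (horizontal axis); the 3 tested members (red) lie at 0 and are set apart sideways to be seen. MS4A4A at -5.93 and MS4A3 at -4.23 lie below all genes of the window that are not members. MS4A6A at -2.57 lies below all of those except PRG2 at -3.29.

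Genes that work with the members or mark the same cells were described from 6 lists. For each, the count of genes called by limma (adjusted p of 0.05 over all tested genes) is given with the median log2 difference, beside 0.01 for all tested genes. Across the 6 lists 1 gene was called lower and none higher. Over all 11554 tested genes limma called 7 lower and 8 higher, edgeR 6 and 5, and DESeq2 85 and 105. At an unadjusted p under 0.05 limma had 385 lower and 440 higher among the 11554.

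Of 14 genes of high-affinity IgE receptor signaling, 12 were tested, 1 was called lower and none higher, and the median was -0.24. FCER1A, the chain that binds IgE and pairs with MS4A2, had 0 reads in all 6 libraries, and was not detectable at this depth. The gene called lower was INPP5D, the phosphatase SHIP1 that limits signaling in blood cells. It was at 43.6, 29.99 and 18.1 RPM in shSc and at 4.12, 2.73 and 2.11 RPM in NPM-KD, groups that did not overlap, with a log2 difference of -3.44 (standard error 0.38) and a limma adjusted p of 0.0262. Its call was lost under 7 of 17 alternatives, among them all 6 libraries (adjusted p = 0.111). LYN, the kinase next to the receptor, had a log2 difference of 0.10 and PLCG1, a phospholipase of the same pathway, one of -0.73, and neither passed.

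Of the cell cycle genes around MS4A3, CDKN3, CDK2 and CCNA2 had log2 differences near 0 in the libraries in which MS4A3 was low. CDKN3, which encodes KAP, was at 50.5, 55.7 and 37.1 RPM in shSc and at 49.6, 50.9 and 67.7 RPM in NPM-KD, overlapping groups with a log2 difference of 0.06 (95% interval -0.53 to 0.66). CDK2 had a difference of -0.01 (-0.57 to 0.55) and CCNA2, a cyclin that activates CDK2, one of 0.01 (-0.53 to 0.55). CCNE1 and CCNE2 had larger differences with wider intervals, at 0.57 (-0.27 to 1.42) and 0.27 (-0.74 to 1.28). None of the 5 genes of this list was called by limma, edgeR or DESeq2, none had an unadjusted p under 0.05, and the median was 0.06.

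Of 20 genes of granulocyte and monocyte progenitors, the cells in which MS4A3 is known, 9 were tested and none was called in either direction by limma, with a median of -1.26. At an unadjusted p under 0.05 there were 5 lower and 0 higher; edgeR called none and DESeq2 called PRG2. LYZ, lysozyme, had a log2 difference of -0.66 and CD33, a sialic acid receptor of myeloid cells, one of -0.52, and neither passed. MPO, the myeloperoxidase of these progenitors, was at 0.141 RPM or less in every library, and CD34 was at 0 in all.

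Of 22 macrophage genes, 5 were tested and none was called by limma, with a median of -2.10. At an unadjusted p under 0.05 there were 3 lower and 0 higher, which DESeq2 called (AIF1, CTSS and TYROBP) and edgeR did not. Many of the defining genes were hardly read: CD163, MARCO, C1QC, TREM2 and CLEC7A were at 0 in all 6 libraries, and 14 of the 22 stayed under 1 RPM in each of the 6. CD68, a lysosomal protein of macrophages that other cells also make, had a difference of -0.05. TYROBP, an adaptor of activating receptors, and AIF1, an actin-binding protein, are given because their values stood out when seen: TYROBP was at 36.4, 32.9 and 24.0 RPM in shSc and at 3.28, 5.46 and 6.90 RPM in NPM-KD (log2 difference -2.67, with a limma adjusted p of 0.0570). AIF1 was at 27.2, 39.8 and 25.7 RPM in shSc and at 6.48, 7.50 and 6.11 RPM in NPM-KD (log2 difference -2.22, with a limma adjusted p of 0.0666). Neither passed, although the groups did not overlap. FCGR2B and CD14 of the same list went the other way over the retained libraries, at low levels and not tested. FCGR2B was at 0.070 and 0.080 RPM in shSc replicates 1 and 2 and at 0.168, 0.426 and 1.26 RPM in NPM-KD. CD14 was at 0.141 and 0.080 RPM in shSc replicates 1 and 2 and at 0.505, 0.171 and 0.896 RPM in NPM-KD. With shSc replicate 3 the groups overlapped for both. CD14 and CSF1R, which mark monocytes and macrophages, were at 0.896 RPM or less in the retained libraries and at 53.0 and 31.4 RPM in shSc replicate 3, the library in which MS4A3, MS4A4A and MS4A6A were highest. The members' differences given above were taken without that library, and with it they were -4.52 for MS4A3, -6.15 for MS4A4A and -2.86 for MS4A6A.

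Of 10 B cell genes that go with MS4A1, 3 were tested and none was called by limma, edgeR or DESeq2 or had an unadjusted p under 0.05, with a median of 0.05 in the retained libraries and -0.95 with all 6, where CD22 was at 29.2 RPM in shSc replicate 3 against 1.54 to 8.22 RPM in the others. MS4A1 itself was at 0 in that library too. CD40 had a log2 difference of -0.11 and CD22 one of 0.05.

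Of 18 transcription factors of these lineages, 10 were tested and none was called by limma, with a median of 0.05. At an unadjusted p under 0.05 there were 2 lower and 1 higher; edgeR called none and DESeq2 called SPI1. GATA1 and GATA2, the factors of erythroid cells and of mast cells and early progenitors, had log2 differences of 0.26 and 0.82 and did not pass. SPI1, which encodes PU.1 and is given after its values were seen, was at 100.1, 38.3 and 42.5 RPM in shSc and at 27.01, 16.3 and 23.9 RPM in NPM-KD (log2 difference -1.48, with a limma adjusted p of 0.433). The groups did not overlap for SPI1, but shSc replicate 1 was far above the other shSc libraries.

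**Figure D4:**
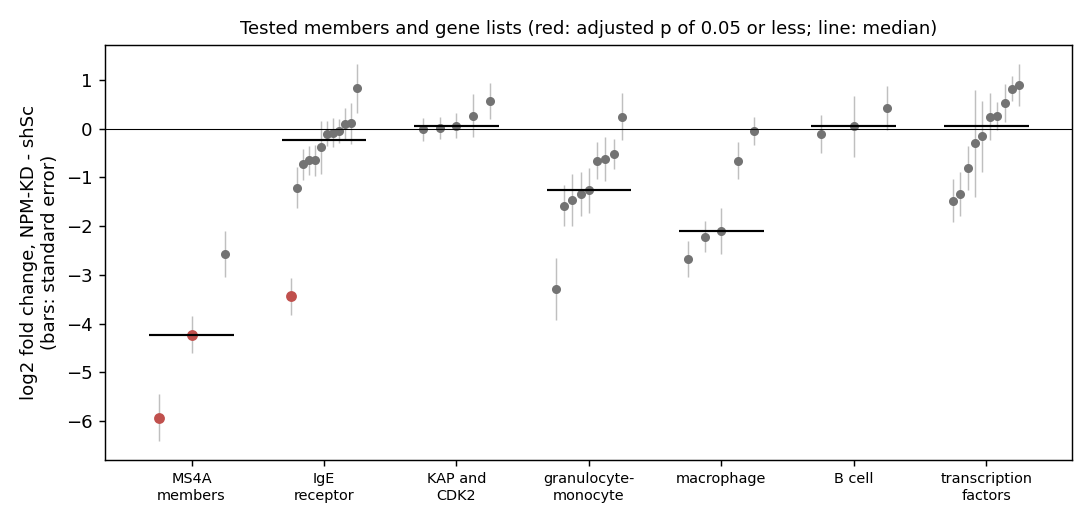
Log2 difference, NPM-KD minus shSc, with its standard error for each tested gene of the members and of the 6 lists (1 point per gene; line: median of the list; red: adjusted p of 0.05 or less in limma). MS4A4A, MS4A3 and INPP5D are the red points, and the medians of the lists run from -2.10 for macrophage genes to 0.06 for KAP and CDK2.

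The genes whose pattern over the 6 libraries came nearest to MS4A3, MS4A4A and MS4A6A were looked up among all 11554 tested genes, by the root mean square difference of log2(RPM + 0.5) after each gene's own mean was taken off. MS4A3 was nearest to SIRPA (0.60), a receptor of myeloid cells for the signal CD47, followed by MS4A6A (0.89), INPP5J (0.94), PLXNC1 (0.96) and LRMP (0.98), with MS4A4A next (0.99). SIRPA was at 9.52, 7.50 and 10.9 RPM in shSc and at 0.421, 0.256 and 0.316 RPM in NPM-KD, so that, like the members, it had its highest value in shSc replicate 3 and no overlap between groups. MS4A4A was nearest to MS4A3 (0.99), SIRPA (1.40), INPP5D (1.67), MS4A6A (1.72) and WAS (1.73). These distances were larger than those around MS4A3.

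MS4A6A was nearest to INPP5J (0.40), PLXNC1 (0.40), SIRPA (0.46), PALD1 (0.47) and ITGA4 (0.52), distances that are small because a pseudocount of 0.5 compresses low levels. PLXNC1, a semaphorin receptor, was at 5.64, 1.75 and 13.6 RPM in shSc and at 0.168, 0.512 and 0.263 RPM in NPM-KD. INPP5J, an inositol phosphatase, was at 16.7, 7.02 and 17.2 RPM in shSc and at 1.35, 0.682 and 2.06 RPM in NPM-KD. As for MS4A6A, shSc replicate 2 was the lowest of the shSc libraries in both genes, and replicate 3 the highest. All of these likenesses are over 6 libraries of 2 groups, and any gene with the same difference between the groups comes near.

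**Figure D5:**
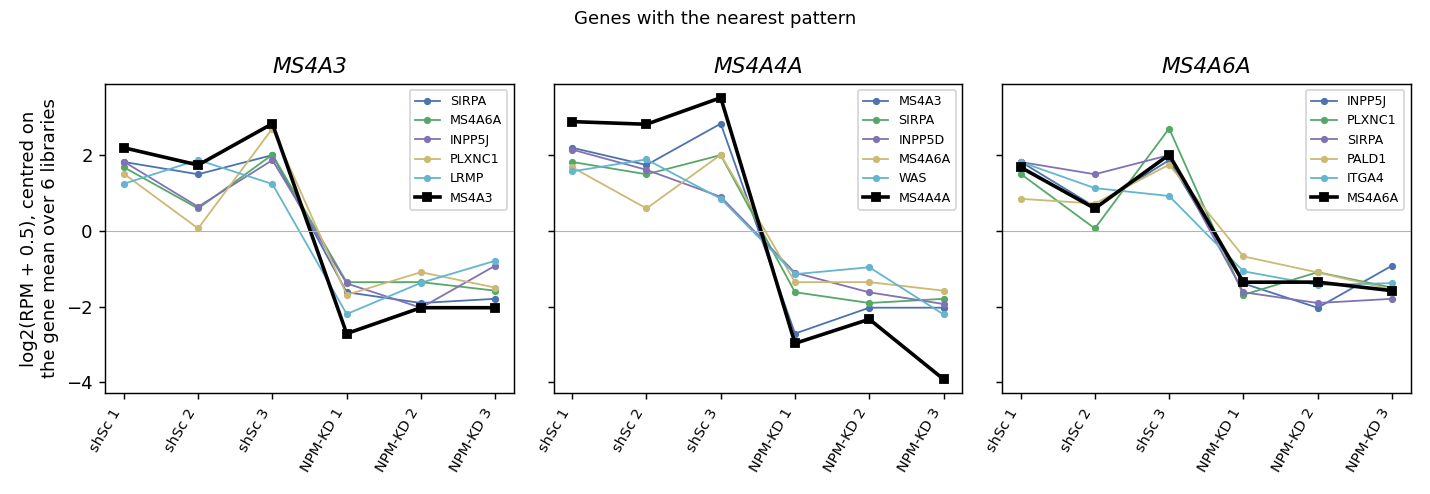
Log2(RPM + 0.5) less each gene's mean over 6 libraries (vertical axis) in the 6 libraries (horizontal axis) for MS4A3, MS4A4A and MS4A6A (black squares) and the 5 nearest genes of each (coloured points); lines join the libraries of 1 gene. All genes shown lie above their mean in shSc and below it in NPM-KD, and SIRPA, at a distance of 0.60, runs closest to MS4A3.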

How the data were processed

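RNA was measured by AmpliSeq on an Ion Proton, and the authors used Torrent Suite, in the version stated in the study's methods, for the alignment to hg19; the RPM per gene that the authors deposited came from the AmpliSeqRNA plugin, whose own version is not stated. RPM steps gave whole reads for at least 99.99% of values within 0.1 read. The 10 spike-in rows, all 0, were left out. Genes at 1 RPM or more in 2 or more of 5 libraries were tested with limma 3.58.1 (R 4.3.3) on log2(RPM + 0.5) with a variance trend and Benjamini-Hochberg adjustment over 11554 genes; the code was tested on simulated data. Poisson intervals of reads were exact. A shift shared by all genes is removed by scaling to RPM. Alternatives were all 6 libraries, other pseudocounts and filters, TMM, quantile normalization, no trend, edgeR 4.0.16 and DESeq2 1.42.0 on recovered reads, a replicate block and each library left out.

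Members, lists and tests were chosen with earlier results of these data known. Genes named were all members and family rows, the 2 most abundant tested flanking genes on either side, called genes and the 2 most abundant others of each list, and the 5 nearest genes of 3 members; all other genes named were chosen after their values were seen, also where the text does not repeat it. Gene positions are from GENCODE 44 on GRCh37 and promoter sequences from RefSeq, placed on GRCh37 by exact match. Tables used Python 3.11.15, and figures matplotlib 3.10.9. The authors' own comparisons, RT-qPCR and ChIP data were not used.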

Additional observations from a re-analysis of the deposited data

Results flagged for a closer look

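Replicate 3 of shSc, which the comparison did not use, held reads of genes of the cluster and its flanks that the other libraries lacked. MS4A12 was at 3.05 RPM there (27 reads), above the limit of 0.339 RPM that 3 reads set, and at 0.070 RPM or less elsewhere. OR10V1, an olfactory receptor gene whose model overlaps STX3, was at 80.1 RPM (708 reads) and at 0 in the other 5 libraries. CD6, a surface protein of T cells whose gene lies beyond the far end of the cluster, was at 2.38 RPM (21 reads), with at most 0.085 RPM elsewhere. GIF was at 0.452 RPM (4 reads) and at 0 elsewhere. Of 4659 genes at 0 in the other 5 libraries, 1844 were above 0 in this one and 427 were at 10 RPM or more. The source of these reads was not tested.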

How the results depend on the processing

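Over 17 alternatives MS4A3 kept a log2 difference of -4.60 to -3.91 and MS4A4A one of -6.30 to -5.51, and MS4A6A, where it was tested, one of -5.93 to -1.86. MS4A6A had no value with a filter of 5 RPM or without either retained shSc library. No flanking gene passed under any alternative. Counts over all tested genes moved much more. Against 7 genes lower and 8 higher, there were 3 and 0 with all 6 libraries, 1 and 1 with no filter, 4 and 3 with a filter of 5 RPM, 13 and 13 with quantile normalization, and 85 and 105 with DESeq2; 13 were higher with a pseudocount of 0.1, 13 without the trend and 5 with edgeR. Of the members, 1 was called lower with no filter and 3 with DESeq2 and with the block over 5 libraries, against 2. Of the lists, against 1 gene lower, there were 0 with all 6 libraries or no filter, 2 with TMM or quantile normalization, and 6 with DESeq2. With no filter the median log2 difference was -0.49 for the granulocyte and monocyte list and -0.08 for the macrophage list, and with a filter of 5 RPM it was -0.48 for the transcription factors. Leaving out 1 library gave 0 to 3 genes lower, 0 to 2 higher, 0 to 2 members lower and 0 to 1 list genes lower; without shSc replicate 1 or 2 limma called 0 genes (875 and 994 at an unadjusted p under 0.05), where the spread of the lone shSc library is taken to equal that of NPM-KD.

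Deviations from group means went together by replicate number for replicates 1 and 2, at correlations of 0.430 and 0.308. Crossed numbers gave -0.367 (shSc replicate 1 with NPM-KD replicate 2) and -0.343 (shSc replicate 2 with NPM-KD replicate 1). For replicate 3 the equal number gave 0.041, and shSc replicate 3 correlated best with NPM-KD replicate 2 (0.098). Whether libraries of equal number were handled together is not stated, and the main test left them unpaired. With a replicate block over 5 libraries, which leaves 1 residual degree of freedom, 995 genes were lower and 703 higher. The lower genes held 3 members, MS4A6A among them, which is no test of them, since they were chosen for this difference. Of the list genes, 13 were lower and 2 higher. With a block over 6 libraries there were 0 of each, 0 members and 0 list genes (1092 genes at an unadjusted limma p under 0.05). Depth sets a floor of 0.158 to 0.339 RPM, and 6 of the 10 members have no readable direction. For MS4A12 the reason is not depth but that its reads came almost wholly from shSc replicate 3.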
